A study of Mus musculus with 6 samples.

Results

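Hspa1a and Hspa1b are neighboring mouse genes for the stress-inducible heat shock protein HSP70, and their locus on chromosome 17 was described here through the accessible chromatin around it. The locus was taken as chr17:34936000-34990000 of the mm10 genome, a stretch of 54 kb, and all peaks lying wholly inside it were kept. These were 59 of the 175929 peaks in the deposited table. The locus was chosen because its tags were lower after tamoxifen than after oil in these libraries, so the ratios inside it are a description of that choice and carry no test.

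The assay was ATAC-seq, which uses a transposase to cut and tag open DNA, and each value is the number of sequencing tags in a peak. The leukemia cells of both groups were Usp18+/f, meaning that 1 of the 2 copies of Usp18 can be deleted, and carried UBCER-Cre, a recombinase under a ubiquitin C promoter that acts once tamoxifen is given. They also expressed AE9a, a short form of the AML1-ETO fusion oncoprotein, with GFP from a retrovirus, and were grown in recipient mice. Sick recipients received oil (3 libraries, Usp18+/f cells) or tamoxifen (3 libraries, Usp18+/Δ cells), and GFP+ Lin- c-Kit+ splenocytes were sorted 3 days after the first injection. No library received tamoxifen without the floxed allele or Cre, so the drug, Cre activity and the loss of 1 Usp18 copy cannot be told apart. The methods describe sorting from several mice per group, with a set of cells shared between RNA-seq and ATAC-seq, but no source used here ties a library to its own mouse. If libraries shared a mouse, the SDs, SEs and p-values below would measure only the spread between these libraries, which may then be technical.

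HSP70 binds exposed hydrophobic stretches of unfolded proteins and helps them refold, and cells need more of it under heat, oxidative or drug-induced stress. Its inducible genes are controlled mainly by heat shock factor 1 (HSF1), which forms trimers under stress and binds heat shock elements, arrays of inverted GAA units. At these genes RNA polymerase II waits just past the start site before induction, so that the promoter is open even when little RNA is made. Under stress, transcription can also run on past the 3′ ends of some genes. RNA was not analysed here, and an open peak is not a measure of transcription.

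Both genes lie on the minus strand and consist of 1 exon each. In the RefSeq annotation of GRCm38.p6, the assembly behind mm10, Hspa1b spans chr17:34956429-34959238 and Hspa1a spans chr17:34969359-34972156, with 10120 bp between the start of Hspa1b and the 3′ end of Hspa1a. Past the 3′ end of Hspa1b lie a pseudogene, Gm8696, and 1110038B12Rik, a long noncoding RNA gene at chr17:34950235-34952471 that hosts the small nucleolar RNA Snord52. On the other side Hspa1l, a related HSP70 gene on the plus strand, starts near the start of Hspa1a, followed by Lsm2, which encodes a subunit of an RNA-binding ring involved in splicing and RNA decay. The 59 peaks were grouped by place. Past the 3′ end of Hspa1b lay 29 peaks, inside Hspa1b 4, and within 1000 bp of its start 3. Between the genes, past the 3′ end of Hspa1a, lay 14 peaks, inside Hspa1a 4, and at its start 1. The starts of Hspa1l and Lsm2 had 1 peak each and 2 peaks lay elsewhere on that side.

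The promoters of the 2 genes are shown first because they are near-identical, which bears on how reads can be placed. The 250 bases before each start are given 5′ to 3′ on the minus strand (RefSeq, GRCm38.p6), with the 2-unit heat shock element in capitals.
Hspa1b promoter: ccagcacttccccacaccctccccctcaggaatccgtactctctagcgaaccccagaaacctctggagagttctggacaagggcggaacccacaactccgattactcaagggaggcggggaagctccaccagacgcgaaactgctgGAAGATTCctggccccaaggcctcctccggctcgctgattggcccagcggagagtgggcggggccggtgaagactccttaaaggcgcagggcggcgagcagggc
Hspa1a promoter: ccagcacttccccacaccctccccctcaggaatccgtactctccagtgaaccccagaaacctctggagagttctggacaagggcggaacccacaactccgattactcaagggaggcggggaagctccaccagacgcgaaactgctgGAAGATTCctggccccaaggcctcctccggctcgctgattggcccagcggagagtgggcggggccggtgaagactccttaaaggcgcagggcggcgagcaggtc
They differed at 3 of 250 bases. Each held 1 element, GAAGATTC, with its first base at position -104 from the start site. The motif searched was GAANNTTC or TTCNNGAA on both strands (each reads the same on either strand), and 15.1% of 32851 RefSeq promoters of 300 bases (250 before to 50 after the start) held at least 1 match. The Hspa1l promoter held none of these letters. A match is a description of sequence and not a binding site.

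One peak past the 3′ end of Hspa1b is shown because it had the lowest log2 ratio of tamoxifen over oil among peaks of at most 300 bases that lie within 15000 bp of the 3′ end and more than 1000 bp from any start site. It is given on the plus strand (mm10).
Lowest ratio, chr17:34945766-34945967: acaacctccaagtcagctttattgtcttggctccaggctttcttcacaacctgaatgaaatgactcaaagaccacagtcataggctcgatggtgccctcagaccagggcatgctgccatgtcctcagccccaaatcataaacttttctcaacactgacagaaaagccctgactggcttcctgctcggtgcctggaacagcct
It held no 2-unit heat shock element, its distance from the 3′ end of Hspa1b was 10462 bp, and its values are given below.

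The 6 libraries held between 57358371 and 74667821 mapped tags each, of which between 17498116 and 21085920 fell in peaks. The start-site peak of Usp18 had 415 to 458 normalized tags in the oil libraries and 438 to 469 in the tamoxifen libraries, and no source used here says that the deleted part includes it, so it does not check the labels. The start-site peaks of 5 of 6 progenitor markers (Kit, Cd34, Runx1, Gata2 and Myb, but not Mpo) summed to 1942 to 1995 normalized tags after oil and 2042 to 2324 after tamoxifen. Among them Cd34 had 73.9 to 117 tags after oil and 212 to 333 after tamoxifen, while Myb had 565 to 605 and 549 to 575. Of 5 T cell markers only Cd5 had a start-site peak, at 10.3 to 15.6 tags after oil and 12.1 to 18.9 after tamoxifen. Of 4 B cell markers only Cd79a had one, at 84.4 to 106 against 69.6 to 120 tags. Of 5 erythroid markers 4 had one (Hbb-b1 did not match an annotated gene), with sums of 1033 to 1123 against 916 to 1031 tags. Of 5 mature myeloid markers 2 had one (Itgam and Adgre1), with sums of 47.8 to 50.7 against 50.8 to 70.8 tags. The part of these cell type differences in the values below was not tested.

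Before any comparison, the locus was densely accessible in the oil libraries. When the genome was tiled in 50414 windows of the same length, the median window held 0 peaks and 31 windows (0.0615%) held 59 or more. Peaks called by the authors in either group count here, and 28 of the 59 were called after oil alone. The median peak of the locus had 191.5 normalized tags after oil, against a median of 49.98 over all peaks. In the first 15000 bp past the 3′ end of Hspa1b, 26 peaks followed each other with a median gap of 151 bp, and from the first to the last they covered 63.8% of the 13516 bp up to the gene. The median width of the locus peaks was 251 bp, beside 250 bp over the series, and the widest was 764 bp. Per kb of peak, the oil level was highest at the Hspa1b start (1933 normalized tags per kb), then Lsm2 (1672) and the Hspa1a start (1369). It was lower at the Hspa1l start (908), inside Hspa1b (771), past its 3′ end (745), past the 3′ end of Hspa1a (442) and inside Hspa1a (340). These levels per kb are means of 3 oil libraries.

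**Figure D1:**
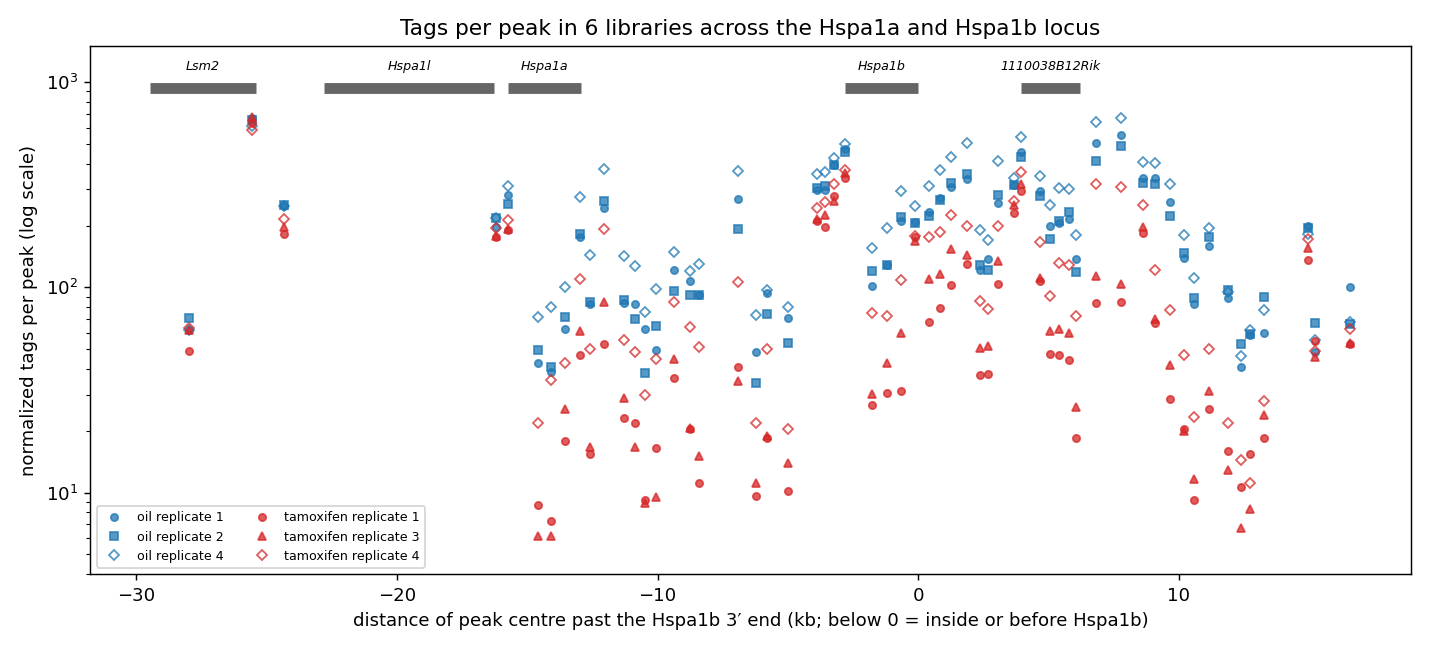
Normalized tags of each of the 59 peaks (y axis, log scale) against the distance of the peak centre past the 3′ end of Hspa1b in kb (x axis), with 1 point per library. Blue points are the 3 oil libraries and red points the 3 tamoxifen libraries, and gray bars mark genes. Transcription of Hspa1a and Hspa1b runs from left to right. The red points lie below the blue ones in 50 of the 51 peaks inside both genes and past their 3′ ends. The groups overlap at Lsm2. They lie closer together in the last 3 peaks on the right and overlap in that at chr17:34941049-34941328.

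The long stretch past the 3′ end of Hspa1b held 29 of the 59 peaks, and their summed tags were lower in every tamoxifen library than in any oil library. Over these peaks, oil replicates 1, 2 and 4 held 6466, 6263 and 8169 normalized tags. Tamoxifen replicates 1, 3 and 4 held 2155, 2549 and 3925. The groups did not overlap, and tamoxifen replicate 4 lay between the other tamoxifen libraries and the oil libraries. The means were 6966 ± 1047 and 2876 ± 930 (SD, n = 3 each), a ratio of 2.42. The median log2 ratio of these peaks in the fit over all peaks was -1.59, beside a median of -0.0013 over all 175929 peaks. A lower tag count in sorted bulk cells can mean fewer cells with the site open or less opening in each, which cannot be told apart here.

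The peaks with the most tags in that stretch lay around 1110038B12Rik and beyond its 3′ end. The peak at chr17:34948330-34948964, 7465 bp past the 3′ end of Hspa1b, had 549.9, 487 and 669 normalized tags in oil replicates 1, 2 and 4. It had 84.6, 104 and 307 in tamoxifen replicates 1, 3 and 4. Its log2 ratio was -1.78 ± 0.59 (SE), and the spread within the tamoxifen group came from replicate 4, without which the ratio was -2.59. Next to it, the peak at chr17:34949334-34949877 had 506, 413 and 639 tags after oil and 84.1, 114 and 319.8 after tamoxifen. Its log2 ratio was -1.59 ± 0.61, and -2.40 without tamoxifen replicate 4. In both peaks tamoxifen replicate 4 lay between the other tamoxifen libraries and the lowest oil library. The Gm8696 pseudogene is mostly covered by the peak at chr17:34954342-34954797, which had 336, 355 and 505 tags after oil and 129.5, 144 and 199 after tamoxifen, with no overlap and a log2 ratio of -1.34 ± 0.27. In this peak 21.1% of the 50-base words occur elsewhere in the genome, so some of its reads could have been placed in more than 1 way.

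The low end of the stretch was farther out. At chr17:34945766-34945967, the peak whose sequence is shown above, the oil libraries had 83.3, 88.3 and 111 tags and the tamoxifen libraries 9.18, 11.7 and 23.3. This was the lowest ratio in the locus, 6.35-fold lower with a log2 ratio of -2.67 ± 0.33, and it ranked 8 from the lowest among all peaks of the series. The adjoining peaks had log2 ratios of -2.30 ± 0.23 and -2.41 ± 0.26. Nearer to the gene, at chr17:34946566-34946964, the oil libraries had 259.8, 222 and 317 tags and the tamoxifen libraries 28.5, 41.8 and 77.3, with a log2 ratio of -2.43 ± 0.42.

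The ratio varied with distance past the 3′ end. In the first 5000 bp, 10 peaks summed to 2733, 2725 and 3624 normalized tags after oil and 1191, 1442 and 1945 after tamoxifen, a ratio of means, oil over tamoxifen, of 1.98 and a median log2 ratio of -1.20. From 5000 to 10000 bp, 9 peaks summed to 2757, 2500 and 3475 tags after oil and 605, 737 and 1501 after tamoxifen, a ratio of 3.07 and a median of -1.69. From 10000 to 15000 bp, 7 peaks summed to 629, 711 and 765 tags after oil and 116, 115 and 196 after tamoxifen, a ratio of 4.94 and a median of -2.33. The farther of these intervals had the larger ratio of oil over tamoxifen, though not the larger difference in tags. Tamoxifen replicate 4 kept 64.2%, 51.6% and 27.9% of the oil mean in the 3 intervals in turn. All 7 peaks from 10000 to 15000 bp were called by the authors after oil alone, so they entered the peak table only through that group. The nearer intervals also held peaks called in both groups. The part of this filter in the change with distance was not tested. The last 3 peaks, whose nearest edge lay 14833 bp past the 3′ end, summed to 348, 327 and 306 tags after oil and 244, 255 and 284 after tamoxifen, a ratio of 1.25 with no overlap. The first interval includes 4 peaks within 1000 bp of the 1110038B12Rik start, and its median was -1.30 over the 6 other peaks.

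**Figure D2:**
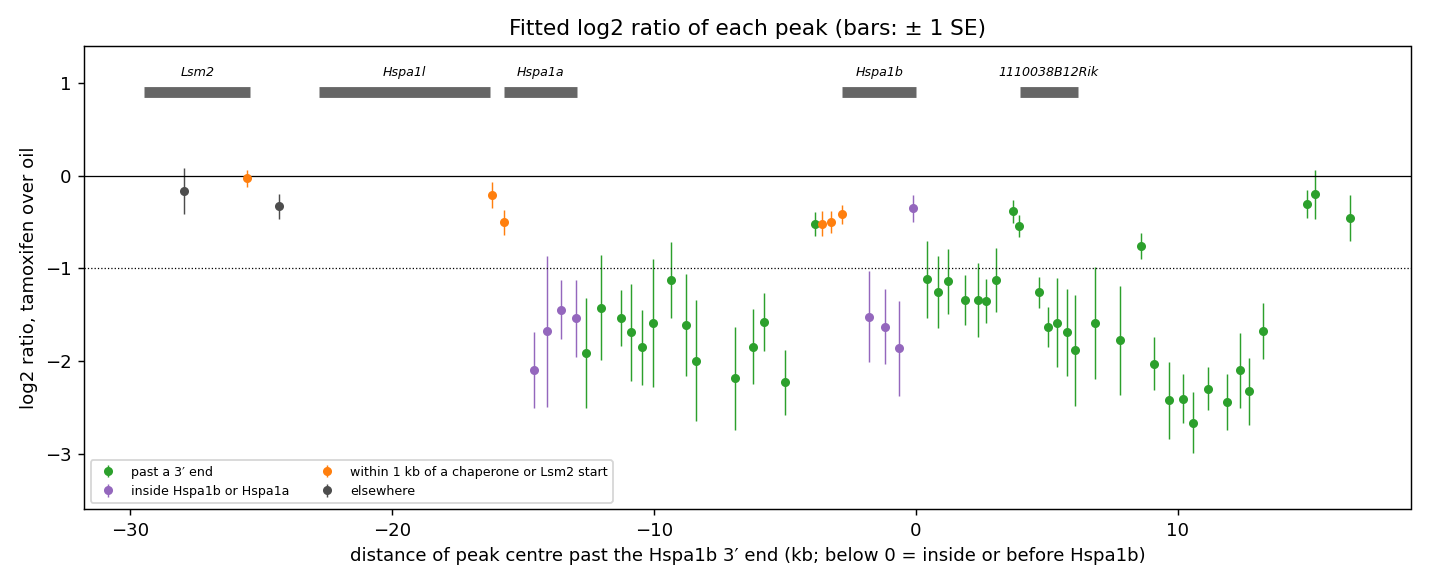
Fitted log2 ratio of tamoxifen over oil for each of the 59 peaks (y axis, bars are ± 1 SE from 3 libraries per group) against distance past the 3′ end of Hspa1b in kb (x axis). The dotted line marks a fold change of 2. Promoter peaks (orange) lie between -0.52 and -0.03, with those of Hspa1b and Hspa1a between -0.52 and -0.42. Peaks inside and past the genes mostly lie below -1, and the lowest point, at -2.67, lies between 10 and 11 kb past the 3′ end.

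The promoter of 1110038B12Rik lies within the stretch. Its peak at chr17:34952370-34952599 had 456, 431 and 538 tags after oil and 296, 319 and 366 after tamoxifen, a log2 ratio of -0.54 ± 0.12. The adjoining peak at chr17:34952637-34952843 had 317, 313.5 and 342 tags after oil and 230.0, 252 and 263.5 after tamoxifen, a log2 ratio of -0.39 ± 0.12. Both had lower tags after tamoxifen without overlap, but by a smaller ratio than the peaks around them. Farther into the gene, the peak at chr17:34951590-34951902, inside the gene body and nearest to the start of a second small nucleolar RNA, LOC115488834, had 296, 279 and 349 tags after oil and 107, 111 and 167 after tamoxifen, a log2 ratio of -1.26 ± 0.17. It was the only peak of the locus that the authors' peak caller listed in the tamoxifen set alone. The peak nearest to the start of Snord52, chr17:34950879-34951173, had 206, 211 and 305.5 tags after oil and 46.9, 62.4 and 131 after tamoxifen, with a log2 ratio of -1.59 ± 0.48.

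Inside Hspa1b the picture split at the 3′ end. The 3 peaks in its body were well below oil, with log2 ratios of -1.87 ± 0.51, -1.63 ± 0.41 and -1.52 ± 0.49 from the 3′ to the 5′ side. The last of these was -2.15 without tamoxifen replicate 4. Over the end of the coding sequence, the peak at chr17:34956926-34957226 had 210.1, 219.9 and 295 tags after oil and 31.4, 60.2 and 108 after tamoxifen. The peak on the 3′ edge of the gene, chr17:34956428-34956649, had 209, 206 and 249.5 tags after oil and 176, 168 and 177 after tamoxifen, a log2 ratio of -0.35 ± 0.14. The edge peak therefore kept most of its tags while the peaks on both sides of it did not.

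Inside Hspa1a all 4 peaks were lower, with log2 ratios from -2.10 to -1.45. In the middle of the gene, the peak at chr17:34970904-34971106 had 43.0, 49.2 and 71.7 tags after oil and 8.70, 6.13 and 21.9 after tamoxifen, a log2 ratio of -2.10 ± 0.41. The peak at chr17:34970424-34970645 had 38.6, 41.0 and 80.2 tags after oil and 7.25, 6.13 and 35.4 after tamoxifen, a log2 ratio of -1.68 ± 0.81. Without tamoxifen replicate 4 these ratios were -2.82 and -2.89. In the latter peak, tamoxifen replicate 4 came close to the lowest oil library without reaching it. The peak across the 3′ end of Hspa1a, chr17:34969152-34969689, had 176.5, 182 and 274 tags after oil and 46.9, 61.3 and 110.3 after tamoxifen, a log2 ratio of -1.54 ± 0.42.

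The bodies of the 2 genes cannot be read fully apart. Their coding sequences of 1929 and 1926 bases were 99.4% identical, with 8 mismatches, whereas the 1000 bp past each 3′ end aligned at 46.7% identity. In the 3 lower Hspa1b body peaks 26.6%, 52.0% and 68.8% of the 50-base words occurred more than once in the genome. In the Hspa1a body peaks this share ran from 0 to 67.5%. Reads from such words could come from either gene, and how the aligner shared them was not tested. Of the 59 peaks 43 held no repeated word. Over such peaks alone the median log2 ratio was -1.47 past Hspa1b and -1.59 past Hspa1a, an alternative added after the data were seen.

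The start sites of both HSP70 genes stayed open after tamoxifen, at a somewhat lower level. The peak at the Hspa1b start, chr17:34959138-34959340, had 474, 459 and 502 tags after oil and 342, 360.4 and 372 after tamoxifen. The groups did not overlap and the log2 ratio was -0.42 ± 0.10. The other 2 peaks within 1000 bp before it had log2 ratios of -0.50 ± 0.11 and -0.52 ± 0.14. The peak at the Hspa1a start, chr17:34972053-34972258, had 280.2, 255.5 and 310.4 tags after oil and 189.9, 193 and 214 after tamoxifen, again without overlap, with a log2 ratio of -0.50 ± 0.13. In these start-site peaks 50% and 51.0% of the 50-base words are repeated, since the promoters match each other. At Hspa1l, an HSP70 relative expressed mainly in testis, the start-site peak had 197, 218 and 217 tags after oil and 176, 177 and 195 after tamoxifen, a log2 ratio of -0.21 ± 0.14. At Lsm2 the values were 672, 652 and 613 after oil and 634, 677 and 584 after tamoxifen, which overlapped, with a log2 ratio of -0.03 ± 0.09 that changed sign to 0.02 without tamoxifen replicate 4.

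Between the genes, the stretch past the 3′ end of Hspa1a resembled the one past Hspa1b. Its 14 peaks summed to 1708, 1545 and 2340.0 normalized tags after oil and 495, 539.8 and 1064 after tamoxifen. The groups did not overlap, the means were 1864 ± 420 and 699.7 ± 316 (SD, n = 3 each), and the median log2 ratio was -1.65, or -2.36 without tamoxifen replicate 4. The widest peak, chr17:34962944-34963707, had 270.3, 193 and 369 tags after oil and 41.1, 35.1 and 107 after tamoxifen, a log2 ratio of -2.19 ± 0.56, and -2.86 without tamoxifen replicate 4. Closest to the gene among the strong peaks, 661 bp past the 3′ end, chr17:34968237-34968698 had 243, 262 and 379 tags after oil and 52.7, 84.7 and 192 after tamoxifen, a log2 ratio of -1.43 ± 0.57, and -2.11 without tamoxifen replicate 4. The peak at chr17:34965652-34965930 had 122, 95.6 and 148 tags after oil and 36.3, 44.6 and 85.2 after tamoxifen, a log2 ratio of -1.13 ± 0.41. One peak of this stretch stood apart. At chr17:34960199-34960400, next to the promoter of Hspa1b, the oil libraries had 297, 304 and 356 tags and the tamoxifen libraries 209.7, 215 and 243.5, with a log2 ratio of -0.52 ± 0.13 that matched those of the promoter peaks beside it.

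**Figure D3:**
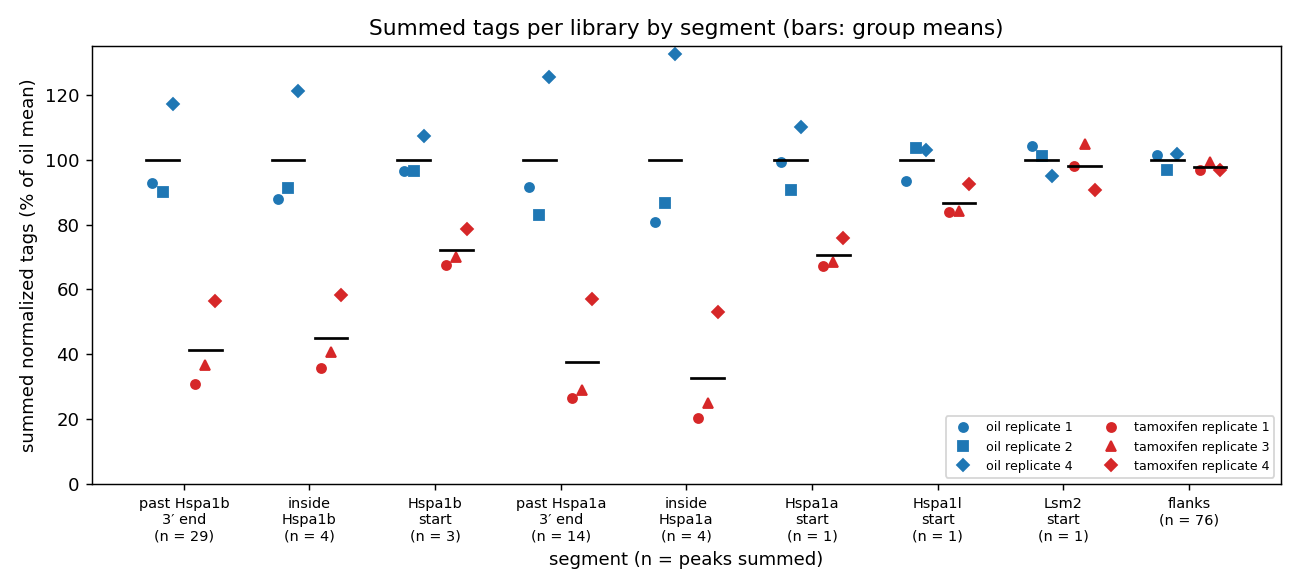
Summed normalized tags per library, as a percentage of the oil mean (y axis), for each segment of the locus and for the 54 kb flanks (x axis, with the number of peaks summed). Blue points are oil libraries, red points tamoxifen libraries, and bars are group means. The tamoxifen libraries held 20.3% to 58.5% of the oil mean inside and past both HSP70 genes, 67.3% to 78.6% at their starts and 96.8% to 99.2% over the flanks.

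The contrast between start sites and downstream stretches was also present inside each library, where no scaling between libraries enters. Per tag in the 6 promoter peaks of Hspa1b, Hspa1a, Hspa1l and Lsm2, the stretch past Hspa1b held 2.79, 2.74 and 3.36 tags in oil replicates 1, 2 and 4. It held 1.19, 1.35 and 2.02 in tamoxifen replicates 1, 3 and 4. For the stretch past Hspa1a these ratios were 0.737, 0.675 and 0.961 after oil and 0.273, 0.285 and 0.548 after tamoxifen. In both cases the highest tamoxifen library lay below the lowest oil library. This ratio was added after the data were seen.

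Within the groups, 1 library of each stood highest. Tamoxifen replicate 4 had the highest tags of the tamoxifen libraries in 56 of 59 peaks, against 36.3% of all peaks. Oil replicate 4 was the highest oil library in 49 of 59, against 35.04% of all peaks. Both libraries carry replicate number 4, and whether the shared number matters was not tested.

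Counted by a 2-fold limit together with an adjusted p limit of 0.05 in DESeq2, 25 of the 59 peaks were called lower and 0 higher. Over all 175929 peaks 0.0659% were called lower and 0.588% higher. These calls come from the contrast that chose the locus, so nothing is read from the count. Of the 116 peaks called lower in the series, the locus held 25. The called peaks were 14 past Hspa1b, 2 inside it, 6 past Hspa1a and 3 inside it, and none lay at a start site of Hspa1b, Hspa1a, Hspa1l or Lsm2. Another 18 peaks had a fold change over 2 without passing the adjusted p. Without tamoxifen replicate 4 the count was 43, and without oil replicate 4 it was 16. All 3 tamoxifen values lay below all 3 oil values in 56 of 59 peaks, against 10.0% of all peaks. The peaks just beyond the fold limit were chr17:34955878-34956122 (-1.12 ± 0.42) and chr17:34965652-34965930 (-1.13 ± 0.41), and among those short of it was chr17:34952370-34952599 (-0.54 ± 0.12).

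The peak lists of the authors come from the same libraries that chose the locus, so they are a description and no separate support. Of the 59 peaks, 28 were listed in the oil set alone, 30 in both sets and 1 in the tamoxifen set alone, whereas over all peaks 17.4% were in the oil set alone and 71.4% in both. Of the 28, 14 lay past Hspa1b, 11 past Hspa1a and 3 inside Hspa1a. The start-site peaks of Hspa1b, Hspa1a, Hspa1l and Lsm2 were all in both sets. Of the 4 peaks within 1000 bp of the 1110038B12Rik start, 2 were in both sets, 1 in the oil set alone and 1 in the tamoxifen set alone.

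The sequence of the peaks showed no single shared feature. Heat shock elements (the 2-unit letters above) were found in 10 of 59 peaks, a share of 16.9% beside 11.9% of the 175738 peaks on the assembled chromosomes. They were in 4 of 29 peaks past Hspa1b (13.8%) and 6 of 14 past Hspa1a (42.9%). The peaks at the Hspa1b and Hspa1a starts held none, although each promoter sequence above holds 1. Of the 43 peaks with a fold change over 2, 8 held one. The letters TGTGGT, a core of sites for RUNX factors such as AML1, were in 16 of 59 peaks, beside 24.2% of all peaks. The letters TGANTCA of AP-1 sites were in 9 of 59 peaks, beside 8.87% of all peaks. The letters GGAAGT of ETS sites were in 9 of 59, beside 22.9%, and a CTCF motif in 1 of 59, beside 7.45%. The median GC content was 47.2%, beside 50.2% over all peaks, and by segment the median was 45.2% past Hspa1b, 48.3% past Hspa1a, 59.0% inside Hspa1b and 60.1% inside Hspa1a.

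The flanks were tested because the choice of the locus did not use them. In the 54 kb on each side, 29 and 47 peaks around genes such as Neu1, Slc44a4, Ehmt2, Vars and Sapcd1 summed to 8616, 8207 and 8646 normalized tags after oil and 8227, 8419 and 8220.0 after tamoxifen. These values overlapped, and the median log2 ratio was -0.03. In DESeq2, 0 of 76 flanking peaks passed, and the lowest adjusted p was 0.102. Beside the 0.0659% and 0.588% of all peaks called lower and higher, a count of 0 among so few peaks is near the background. An unadjusted p under 0.05 was reached by 3 peaks (3.95%, beside 9.02% of all peaks), and by 7 in edgeR (9.21%, beside 17.6%), which also called 0. The peak with the lowest adjusted p, chr17:34922983-34923266 near Neu1, the lysosomal sialidase gene, had a log2 ratio of -0.59 ± 0.19.

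Other heat shock genes were examined from a list of 31 chaperone, co-chaperone, ubiquitin and HSF genes. Their 511 peaks lay within the gene, within 1000 bp of the start, or within 15000 bp past the 3′ end. By the same rule in DESeq2, 49 of them (9.59%) were called lower and 0 higher, beside 0.0659% and 0.588% of all peaks. The called peaks belonged to 4 genes: Hsph1 (HSP110, an exchange factor for HSP70) with 31, Hsp90aa1 and Hsp90ab1 (the cytosolic HSP90 proteins) with 8 each, and Hspe1 (the mitochondrial co-chaperonin) with 2. Of these, 32 lay past a 3′ end, 17 inside Hsph1, and 0 of the 56 start-site peaks passed. The count of 49 was 23 without oil replicate 4, 30 without tamoxifen replicate 3 and 84 without tamoxifen replicate 4. The list is no independent sample of genes, since earlier results of these data were known when it was written.

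Hsph1 had the most calls of these genes. Its 18 peaks past the 3′ end summed to 1207, 1226 and 1925 normalized tags after oil and 189, 202 and 498 after tamoxifen, a ratio of means of 4.90, and 14 of them passed. The peak nearest to its start had a log2 ratio of 0.00 ± 0.08 (adjusted p = 0.999 in DESeq2), while the median of the 4 peaks within 1000 bp of the start was -0.48. One of these, chr5:149635612-149635824, chosen after its values were seen, had a log2 ratio of -0.89 ± 0.19 with an adjusted p of 0.00065 in DESeq2, short of the fold limit. Past Hspe1, 11 peaks summed to 788, 704.5 and 1046 tags after oil and 289.5, 291 and 597 after tamoxifen. Past Hsp90ab1, 28 peaks summed to 7619, 7502 and 8685 tags after oil and 4401, 4341 and 5964 after tamoxifen. Past Dnajb1, an HSP40 co-chaperone of HSP70, 21 peaks had a median log2 ratio of -0.75, and 16 passed the adjusted p without the fold limit. The most abundant of these, chr8:83613816-83614484, had a log2 ratio of -0.56 ± 0.11 with an adjusted p of 0.000309 in DESeq2. In the 4 genes with calls, the most abundant peak past the 3′ end did not pass. Its log2 ratio was -2.18 ± 0.86 at Hsph1 and -1.19 ± 0.38 at Hspe1 (adjusted p = 0.28 and 0.097 in DESeq2). At Hsp90aa1 and Hsp90ab1 it was -0.285 ± 0.338 and -0.19 ± 0.08 (adjusted p = 0.93 and 0.36 in DESeq2). Past Hspa8, the constitutive HSP70, the median of 25 peaks was -0.54 and none passed the full rule, with values of 6970, 7435 and 9939 tags after oil and 3559, 6094 and 7877 after tamoxifen that overlapped. Past Hspa5, the HSP70 of the endoplasmic reticulum, the median was -0.10, and past Hsf1 it was also -0.10.

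**Figure D4:**
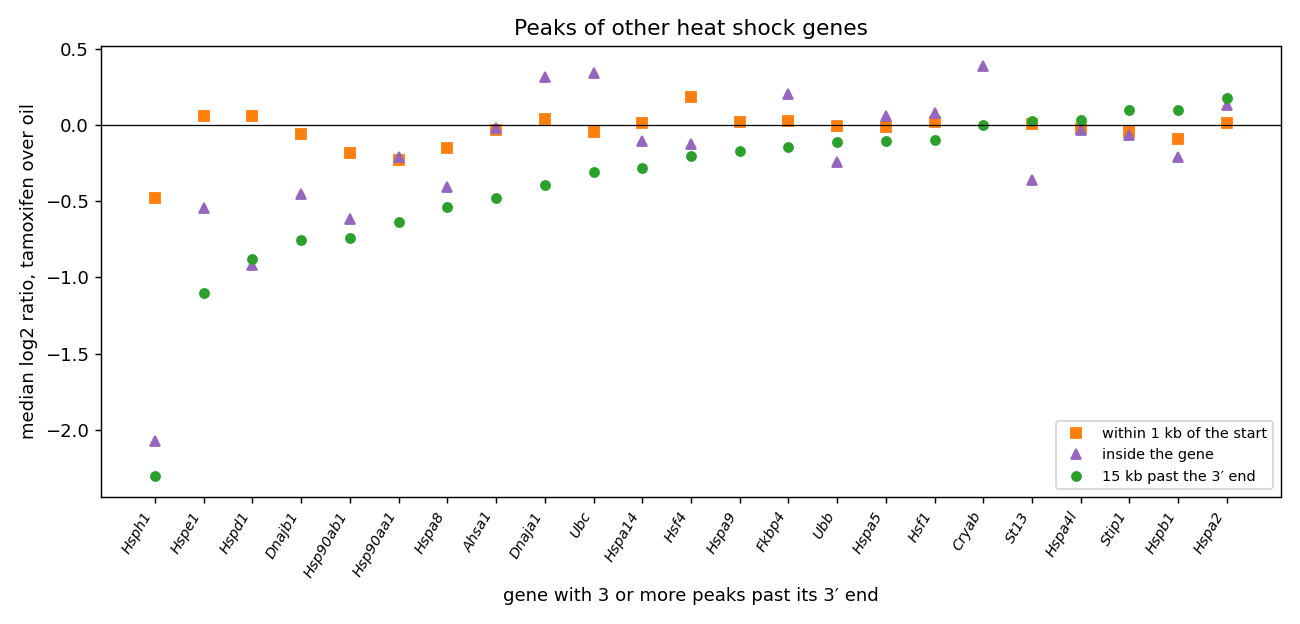
Median log2 ratio of tamoxifen over oil (y axis) for the peaks within 1000 bp of the start (squares), inside the gene (triangles) and within 15000 bp past the 3′ end (circles) of other heat shock genes with 3 or more peaks past the end (x axis, sorted). Hsph1 lies lowest with -2.31 past its end and -2.08 inside it, and the start-site medians lie between -0.48 and 0.18.

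The stretch past Hspa1b was compared with the 15000 bp past every other annotated gene with at least 3 peaks there, by the distance between their log2 summed tags over the 6 libraries, each taken relative to its oil mean. Among 11690 genes that share no peak with the locus, Hspe1 was nearest with a distance of 0.469, while the median distance was 2.52. Distances are taken to the Hspa1b decrease that chose the locus. Over genes, the median of the mean log2 value after tamoxifen was -0.012. The median distance therefore reflects the size of the chosen decrease and is no yardstick of likeness. The next nearest genes were Gata3 (0.855), Coq10b (0.974), Mndal (1.01) and Dync1h1 (1.16). The values of Gata3 and Mndal rest on 4 and 3 peaks, beside 26 for Hspa1b. Of the 12 Coq10b peaks 11 also belong to the stretch of Hspd1, and of the 25 Dync1h1 peaks 9 also belong to that of Hsp90aa1, so these are partly the same peaks as in the list above. For Hspa1b itself the log2 values were -1.79, -1.52 and -0.85 in tamoxifen replicates 1, 3 and 4, and for Hspe1 they were -1.53, -1.52 and -0.48. In both, tamoxifen replicate 4 was nearest to oil. Hspe1 was picked for its small distance over these same libraries, so this likeness is part of the choice and no separate result.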

How the data were processed

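Accessible chromatin was analyzed in 3 oil and 3 tamoxifen libraries. Per the labels and methods, the authors aligned reads to mm10 with Bowtie2 and used HOMER to call peaks, merge them and write raw tags per peak, and the submitters' processing notes name the same tools. The deposited values are estimated counts in steps of 0.5 and were rounded to whole numbers for the tests. All 175929 peaks were fitted with DESeq2 1.42.0 (R 4.3.3), with group as the only term, and p-values were Benjamini-Hochberg adjusted over all of them. Normalized tags are raw tags divided by the DESeq2 size factor of the library (0.898 to 1.116 over the 6 libraries). Calls required more than a 2-fold difference together with adjusted p below 0.05. edgeR 4.0.16 quasi-likelihood tests were an alternative. The members and all lists were chosen with earlier results of these data known. Named peaks were those nearest to each start in the locus, those inside both HSP70 genes, the 6 and 4 peaks with the most tags past Hspa1b and Hspa1a, and those nearest to the fold limit; the peak shown by its sequence past Hspa1b was chosen after its values were seen, as was the peak at chr17:34946566-34946964. For other genes the list rule names the start-site peak and the peak with the most tags past the 3′ end, and the genes with calls were added after their values were seen. One item that the rule names is not reported here.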

Additional observations from a re-analysis of the deposited data

How the results depend on the processing

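The direction of every locus summary was the same under all alternatives run. The median log2 ratio past Hspa1b ran from -1.83 to -1.26 and its log2 ratio of summed tags from -1.57 to -1.11 when 1 library was left out, and the median past Hspa1a from -2.36 to -1.41. The called peaks of the locus ran from 16 (without oil replicate 4) to 43 (without tamoxifen replicate 4), those of the other heat shock genes from 23 to 84 without the same libraries, and those of the flanks stayed at 0. Without tamoxifen replicate 3 the other heat shock genes had 30. With no limit on the fold change they had 76, and within 5000 bp past the 3′ end 22. edgeR called 20 peaks of the locus and 55 of the other genes. Over all peaks with a mean of at least 10 tags, replicate numbers did not pair the libraries. Same-numbered libraries deviated together with r = -0.0443 and 0.0506 for numbers 1 and 4. These values do not speak for the locus, where both libraries numbered 4 stood highest in their group. A replicate block over the 4 libraries with shared numbers called 16 peaks of the locus and 16 of the other heat shock genes, and it used fewer libraries. Of the named peaks, that at the Lsm2 start changed sign, with log2 ratios from -0.082 to 0.025 when 1 library was left out. The causes of the other shifts were not tested. Peaks with under 10 tags in a tamoxifen library rest on few tags, so their ratios are less precise.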
